A study of Rattus norvegicus with 4 samples.

Results

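The mitochondrial ribosomal proteins are described here in kidney RNA of rats: the Mrpl family, named for the large subunit, and the Mrps family, named for the small subunit. Probe sets were taken whose gene symbol in the platform annotation begins with Mrpl or Mrps followed by a number. The rule found 82 of 15866 probe sets, for 71 of 10411 named genes. Of the 82, 55 probe sets read 45 Mrpl genes and 27 read 26 Mrps genes. The study asks how nicotine before birth acts on the kidneys of rats, and all animals were males aged 9 weeks. Its 4 groups were spontaneously hypertensive rats (SHR) exposed to nicotine prenatally, SHR exposed to saline, Brown Norway rats (BN) exposed to nicotine and BN exposed to saline. SHR is an inbred strain with inherited high blood pressure, and BN an inbred strain with normal blood pressure. Kidney RNA was pooled from 13 animals in the SHR nicotine group and from 12 in each of the other groups, and each pool was read on 1 Affymetrix RAE-230A array. With 1 pool per group the spread between animals was not measured, so the small number of arrays sets how precise any value can be.

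Mitochondria keep their own ribosomes, which translate the few messages of the mitochondrial genome, all of them for membrane subunits of the respiratory chain and the ATP synthase. The ribosomal RNAs come from the mitochondrial genome, while every protein of the mitoribosome is encoded in the nucleus, made in the cytosol and imported. Some of these proteins descend from bacterial ribosomal proteins and others have no bacterial counterpart. The kidney tubule is rich in mitochondria, which power salt reabsorption. The structural roles named here come from mitoribosomes of pig and human cells.

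Promoters are shown for the members whose signal differed between the strains, since the same letters recur in them, and for Mrpl46, which starts head to head with another member, Mrps11. The recurring letters also stand in promoters of members that did not differ, and any part in the strain differences was not tested. Of the 71 genes, 57 had a promoter in the RefSeq table of build GRCr8, a window of 300 bases with 250 before and 50 after the gene's start. Mrps35 was not among them. Each sequence runs 5′ to 3′ on the gene's own strand, and capitals mark the motif found. The windows lie at chr8:27815521-27815820, plus strand, for Mrpl4; at chr15:31852686-31852985, plus strand, for Mrpl52; at chr4:117172793-117173092, plus strand, for Mrpl53; and at chr1:142116981-142117280, minus strand, for Mrpl46. In the first 3 the capitals are the ETS family motif CCGGAAG or its reverse complement, and in Mrpl46 they are the YY1 motif AAGATGGCG.
Mrpl4: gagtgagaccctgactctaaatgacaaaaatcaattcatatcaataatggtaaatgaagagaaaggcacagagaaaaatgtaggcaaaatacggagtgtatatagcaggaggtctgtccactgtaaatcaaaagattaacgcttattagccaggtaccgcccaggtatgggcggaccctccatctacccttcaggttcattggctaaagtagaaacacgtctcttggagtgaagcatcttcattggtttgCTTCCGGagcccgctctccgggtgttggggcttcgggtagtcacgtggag
Mrpl52: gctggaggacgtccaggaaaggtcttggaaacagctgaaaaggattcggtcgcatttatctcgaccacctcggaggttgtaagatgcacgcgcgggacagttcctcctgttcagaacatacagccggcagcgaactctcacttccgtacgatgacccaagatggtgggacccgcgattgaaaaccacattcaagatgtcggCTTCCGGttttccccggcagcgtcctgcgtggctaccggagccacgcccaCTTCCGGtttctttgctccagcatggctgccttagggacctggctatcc
Mrpl53: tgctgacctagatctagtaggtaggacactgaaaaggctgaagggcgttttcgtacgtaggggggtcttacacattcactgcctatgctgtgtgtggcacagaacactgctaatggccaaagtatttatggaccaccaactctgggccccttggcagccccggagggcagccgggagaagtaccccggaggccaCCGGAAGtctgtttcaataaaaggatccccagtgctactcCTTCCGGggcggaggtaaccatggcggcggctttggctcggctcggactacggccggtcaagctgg
Mrpl46: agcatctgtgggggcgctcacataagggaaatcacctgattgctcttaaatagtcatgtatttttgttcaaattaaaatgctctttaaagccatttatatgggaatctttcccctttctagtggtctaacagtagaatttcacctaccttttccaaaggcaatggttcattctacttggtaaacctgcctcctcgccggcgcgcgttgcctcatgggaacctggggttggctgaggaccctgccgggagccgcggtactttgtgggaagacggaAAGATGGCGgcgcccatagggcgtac

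The letters of these motifs were common in promoters of the family. CCGGAAG, which ETS factors such as GABP recognise, was found in 19 of 57 member promoters (33.3%), against 15.5% of the promoters of all genes on the array and 9.22% of all promoters in the table. AAGATGGCG was found in 8 members (14%), against 3.44% of promoters of genes on the array and 1.93% of all. The motif of NRF1, a regulator of genes for mitochondria, searched as GCGC, any base and TGCGC, was found in 9 members (15.8%), against 9.03% and 4.71%. Both strands were searched, and 29 of 57 member promoters (50.9%) held at least 1 of the 3 motifs, against 24.7% for the genes on the array. The members' median G and C content was 56%, against 60.3% for the genes on the array. A match is a description of the letters and was not tested as a site. A start on the other strand lay within 1000 bases upstream for 16 of 57 members (28.1%), against 13.9% of genes on the array. Examples are Mrpl32 beside the proteasome gene Psma2 and Mrpl18 beside the chaperonin gene Tcp1.

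The arrays carried a whole-kidney profile. All 8 proximal tubule markers and all 4 markers of the thick ascending limb were measured, and the 4 adrenal genes stayed below the floor on every array. Values were raised to a floor of 44.5 signal units, which 58.9% to 60.7% of the probe sets on an array reached. A probe set was tested if its mean over the 4 arrays, on the log2 scale, reached 89.0, or 2 times that floor. Of the 82 members, 76 were tested, for 68 genes. The members' median signal was 217.4 and 220.9 in the SHR nicotine and saline pools and 207.7 and 224.9 in the BN nicotine and saline pools. The 6 members left out were a second probe set each of Mrpl37, Mrpl51 and Mrps26, and the single probe sets of Mrpl39, Mrps27 and Mrps31.

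Between the strains the family as a whole differed little. Of 76 tested members, 4 differed between SHR and BN averaged over treatments (5.26%; limma, Benjamini-Hochberg adjusted over all probe sets at 0.05), 2 higher and 2 lower in SHR, where 17.3% of all 6678 tested probe sets did. At an unadjusted p under 0.05 the count was 14 (18.4%), where 29.7% of all did. Mrpl4 and Mrps35 were lower in SHR, Mrpl53 was higher, and Mrpl52 was higher by 1 of its 2 probe sets. The median difference over the 76 members was 0.011 on the log2 scale, against -0.001 over all tested probe sets, and 66 of 76 members (86.8%) lay within 1.2-fold, against 75.4% of all. The count of members was 2 without the BN nicotine pool and 2 without the BN saline pool. In whole kidney, fewer cells of a type and less RNA per cell cannot be told apart.

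**Figure D1:**
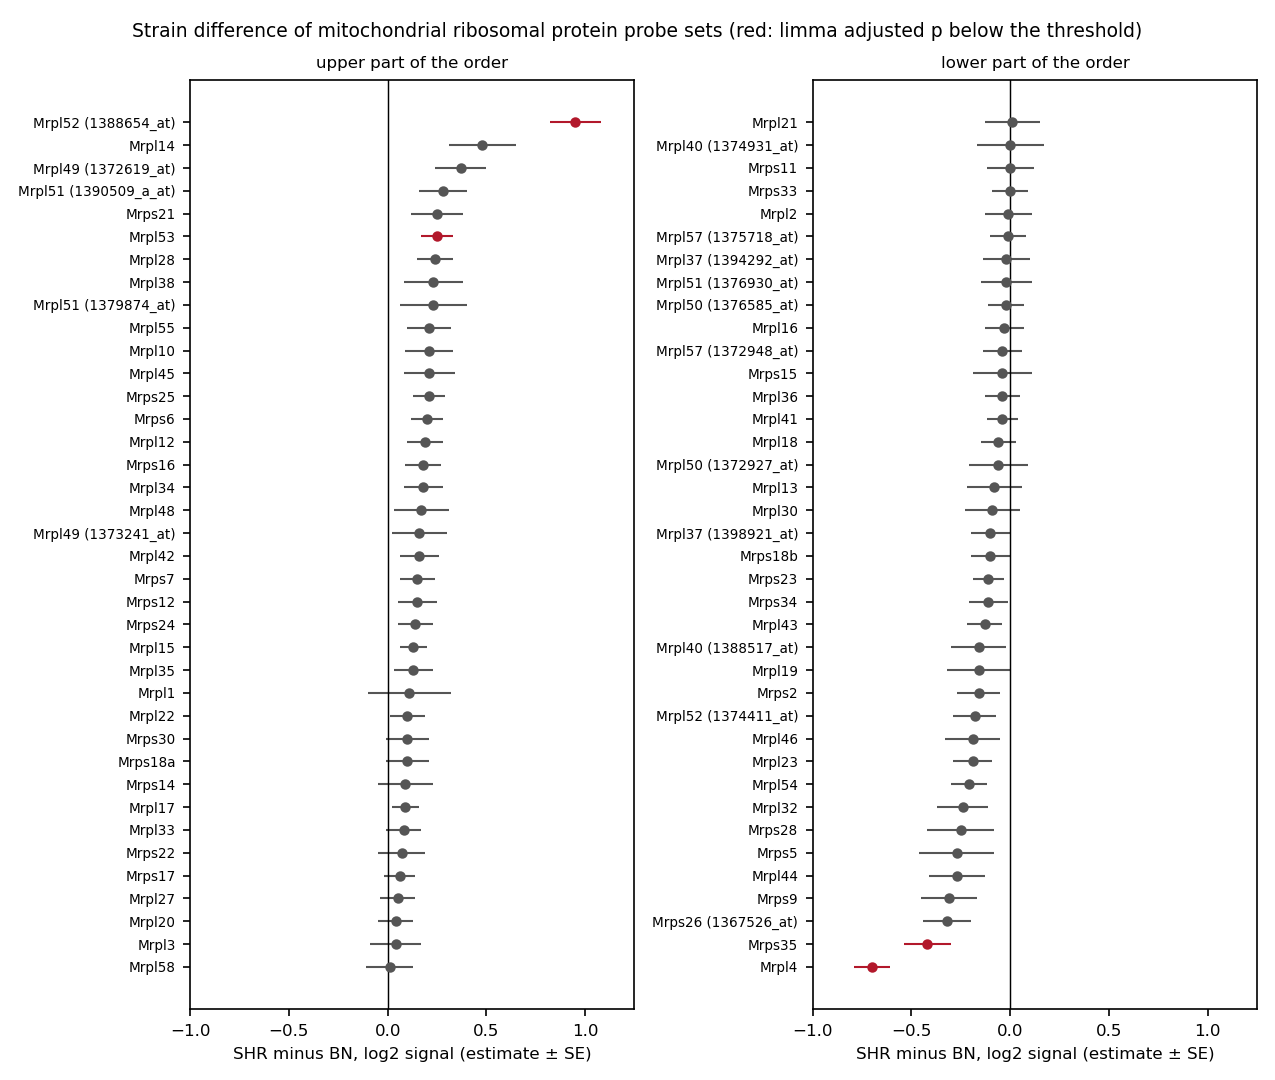
Estimated difference SHR minus BN in log2 signal, with its standard error, for each of the 76 tested probe sets, ordered from the highest at the top left to the lowest at the bottom right. The 4 red points are past the threshold, and 66 of the 76 lie within 1.2-fold.

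Mrpl4, a large subunit protein that lines the tunnel through which the new chain leaves, was the tested member furthest below BN. Its signal was 266.0 and 312.8 in the SHR nicotine and saline pools, against 460.5 and 477.8 in the BN nicotine and saline pools. Both SHR pools lay below both BN pools by a wide margin. The estimate was 1.63-fold lower in SHR (log2 -0.70, SE 0.09, limma adjusted p = 2.98e-05), and it was past the threshold in 14 of 15 settings tried.

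Mrps35, a small subunit protein with no bacterial counterpart, was also lower in SHR. Its signal was 147.3 and 143.4 in the SHR nicotine and saline pools, against 199.2 and 191.1 in the BN nicotine and saline pools. The 2 pools of a strain lay close together and the strains did not overlap. The difference was 1.34-fold (log2 -0.42, SE 0.12, limma adjusted p = 0.0226). It passed in 8 of 14 settings and in none of the fits that left out 1 pool, where the estimate ranged from -0.46 to -0.39.

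Mrpl53, which has no bacterial counterpart and sits in the large subunit, read 624.8 and 632.0 in the SHR nicotine and saline pools, against 542.9 and 514.5 in the BN nicotine and saline pools. Both SHR pools were above both BN pools. The difference was 1.19-fold (log2 0.25, SE 0.08, limma adjusted p = 0.0358), the smallest of the 4. It passed in 6 of 15 settings and was lost when any 1 of the 4 pools was left out, with estimates of 0.21 to 0.29.

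The probe sets of Mrpl52, another large subunit protein without a bacterial counterpart, did not go together. The probe set 1388654_at read 200.8 and 210.0 in the SHR nicotine and saline pools, against 107.5 and 104.6 in the BN nicotine and saline pools, 1.94-fold higher in SHR (log2 0.95, SE 0.13, limma adjusted p = 5.44e-05). The probe set 1374411_at read 180.1 under nicotine and 221.9 under saline in SHR, against 210.2 and 245.6 in BN. Here the strains overlapped, and the estimate had the other sign (log2 -0.18, SE 0.11, limma adjusted p = 0.286). A strain difference of this gene rests on which probe set is read, and whether the probes match both strains' sequence was not tested.

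**Figure D2:**
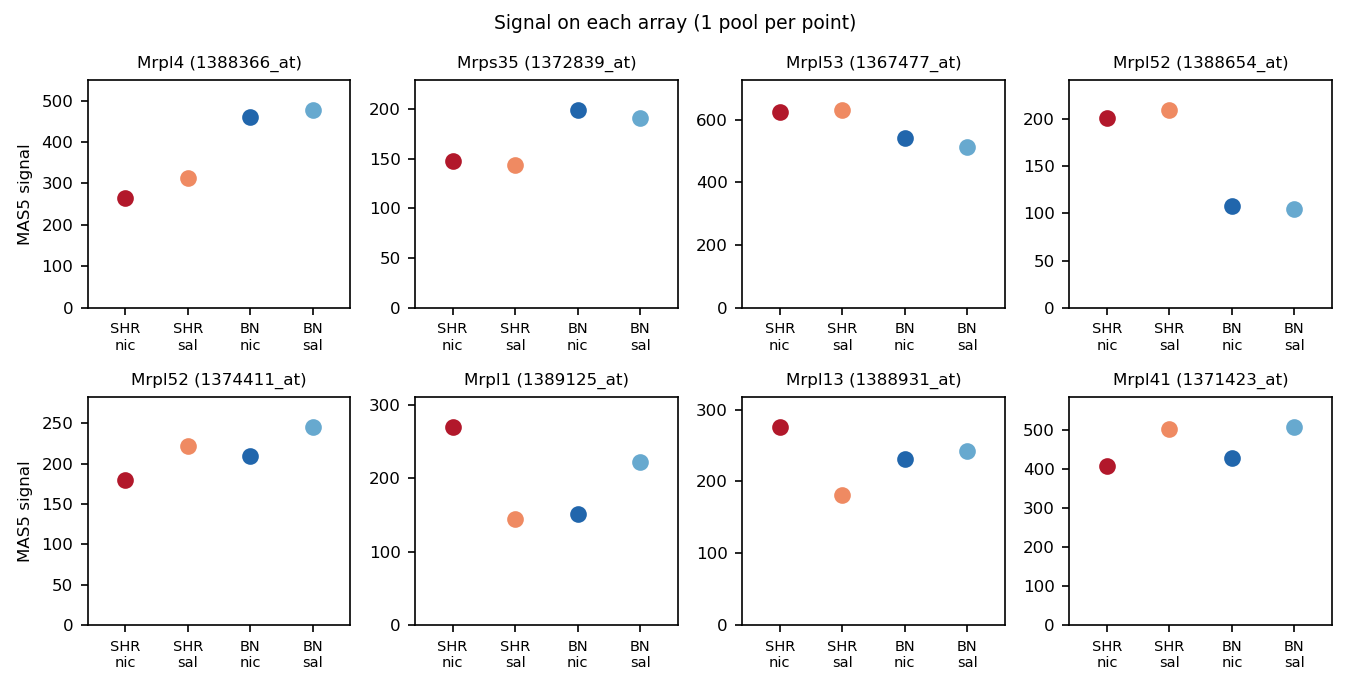
MAS5 signal (linear axis from 0) of 8 member probe sets, 1 point per pool, with the nicotine and then the saline pool of SHR on the left and those of BN on the right. Mrpl4 and Mrps35 sit lower in both SHR pools, the 2 probe sets of Mrpl52 differ in pattern, Mrpl1 is highest in the SHR nicotine pool, and Mrpl41 is lower in both nicotine pools.

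Among the 72 tested members that did not pass, the estimates reached 0.48 on the log2 scale. That value belongs to Mrpl14, a large subunit protein at the face between the subunits, with 103.4 and 151.9 in the SHR nicotine and saline pools against 91.0 and 88.2 in the BN nicotine and saline pools (limma adjusted p = 0.0621). The SHR saline pool alone was high: SHR over BN was 1.72-fold under saline and 1.14-fold under nicotine. Without the SHR nicotine pool, in a fit that held strain alone, the estimate was 0.76.

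Mrpl49 is a large subunit protein with no bacterial counterpart, and its probe sets 1372619_at and 1373241_at had estimates of 0.37 and 0.16 (limma adjusted p = 0.0739 and 0.483). Small subunit members below BN included Mrps26 (log2 -0.32, limma adjusted p = 0.0682) and Mrps9 (log2 -0.31, limma adjusted p = 0.15), the counterpart of a bacterial protein near the decoding site. Mrps5, at the entry of the message channel, and Mrpl44, which carries a domain like that of RNase III, were both at -0.27. None of these 5 genes passed the test as reported. The estimate of Mrps5 moved most with single pools, to -0.08 without SHR nicotine and -0.07 without BN nicotine, and to -0.45 without SHR saline and -0.46 without BN saline. Fits with a pool left out held strain alone, so treatment differences enter these values. Mrps26 passed without the SHR saline pool, at -0.44, and where the floor was the 60th percentile.

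Of the members left out for low signal, Mrps31 had the widest gap. It is a small subunit protein without a bacterial counterpart, and read 56.6 and 73.8 in the SHR nicotine and saline pools against 110.0 and 101.6 in the BN nicotine and saline pools. Both SHR pools were below both BN pools. With a filter on the higher of the group means it entered the test, at log2 -0.71 (SE 0.19, limma adjusted p = 0.0135). Entry through the higher group favours members that differ between the groups, so this adds no support. Mrps27, a small subunit protein that binds RNA, read 80.0 and 52.0 in the SHR nicotine and saline pools against 68.7 and 68.0 in the BN nicotine and saline pools. Mrpl39 read 76.6 under nicotine and 105.8 under saline in SHR, against 84.2 and 88.2 in BN. In neither did the strains separate. The remaining probe sets of Mrpl37 and Mrps26 were below the floor on every array, and 1390188_at of Mrpl51 read between 43.8 and 62.0.

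Members past the threshold came from both subunits. Among Mrpl probe sets 3 of 52 passed (5.77%) and among Mrps probe sets 1 of 24 (4.17%), with medians of 0.011 and 0.029 on the log2 scale. By the list of bacterial counterparts used here, members with one passed in 1 of 41 cases (Mrpl4) and those without one in 3 of 35. Their medians were 0.056 and -0.016. Mrps28 was counted among those without one, and the assignments were not checked against sequences. Over all tested probe sets the share was 17.3%. These differences between the groups of members were not tested.

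Pools of the 2 strains were often apart by small amounts, in the family as elsewhere. Both SHR pools were above both BN pools for 25 tested members, where 29.9% of all tested probe sets were, and below for 14, where 28.9% were. Together these are 51.3% of members, against 58.9% of all. With 2 pools against 2, an exact permutation test of a single member cannot go below p = 0.333 (two-sided), so the calls rest on limma, which borrows the spread from probe sets of similar signal.

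Several sample features went with strain. For beta-actin the ratio of 3′ to 5′ probe signal, which grows as RNA degrades, was 1.34 and 1.39 in SHR and 1.49 and 1.54 in BN, nicotine before saline. That of Gapdh overlapped between the strains and reached 1.11 at most. That of hexokinase ran the other way: the SHR pools gave 2.27 and 2.81, against 1.71 and 2.22 for the BN pools. The summed signal of the 8 proximal tubule markers was 28005.6 and 27541.3 in SHR and 23552.2 and 23966.8 in BN. Of their 10 tested probe sets, 8 were higher in SHR and 2 lower. The 7 immune cell genes on the array, with Cd3e and Ptprc below the floor on all arrays, summed to 3951.3 and 3341.7 in SHR. In BN they summed to 2791.3 and 2539.6. Sums of the thick ascending limb, endothelium, and fibroblast and pericyte lists were also higher in both SHR pools. Of 3 tested thick ascending limb probe sets, however, 2 were lower. The podocyte sum ran the other way, with 695.1 and 702.3 in SHR against 834.6 and 844.2 in BN. So did the adipocyte sum, with 555.0 and 622.8 against 789.0 and 699.9. The part of these features in the strain differences was not tested.

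**Figure D3:**
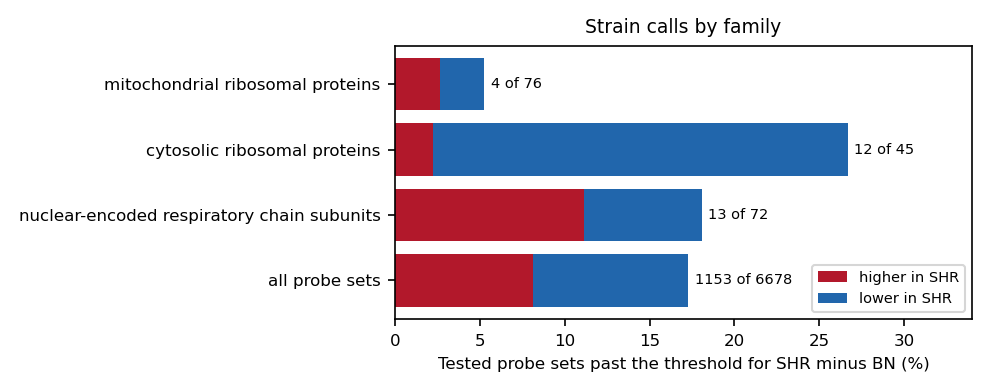
Share of tested probe sets past the threshold for SHR minus BN (percent, bars from 0), split into higher and lower in SHR, for mitochondrial ribosomal proteins, cytosolic ribosomal proteins, nuclear-encoded respiratory chain subunits and all probe sets. The counts beside the bars are 4 of 76, 12 of 45, 13 of 72 and 1153 of 6678.

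Cytosolic ribosomal proteins, the nearest family by function, stood otherwise: 12 of 45 tested probe sets passed (26.7%), 11 of them lower in SHR, with a median of -0.134. Nuclear-encoded respiratory chain subunits, whose mitochondrial partners are made on mitoribosomes, passed in 13 of 72 cases (18.1%), 8 higher and 5 lower in SHR, with a median of 0.04. By size the order was another: 91.7% of respiratory chain probe sets lay within 1.2-fold, against 86.8% of members and 80% of cytosolic ones. The median absolute log2 difference was 0.08, 0.13 and 0.16 in that order. The differences between these shares and that of the mitochondrial ribosomal proteins were not tested. Standard errors were smaller at high signal, such as 0.06 for Rpl11, against a median of 0.11 for members. Rpl11 passed at -0.22, while Mrps26 did not at -0.32 (SE 0.12). Shares of families at unlike signal are thus not on 1 scale.

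Proteins of mitochondrial translation whose symbols do not begin with Mrp were read from further lists. Ptcd3, a pentatricopeptide protein of the small subunit at the entry of the message channel, read 363.9 and 402.1 in the SHR nicotine and saline pools against 773.7 and 777.3 in the BN nicotine and saline pools. It was 2.03-fold lower in SHR (log2 -1.02, SE 0.08, limma adjusted p = 8.99e-08), further apart than any tested member. In the list that holds Ptcd3, 1 of 7 tested probe sets passed (14.3%), where 17.3% of all tested probe sets did. The other 6 genes of that list did not pass: the ribosomal proteins Dap3, Chchd1, Aurkaip1 and Gadd45gip1, the membrane insertase Oxa1l, and Slirp, which stabilises mitochondrial messages. Slirp had the next largest estimate, 0.45 (limma adjusted p = 0.062).

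Of 7 tested assembly factors, 2 passed (28.6%), C1qbp lower and Mterf3 higher in SHR. C1qbp, a matrix protein needed for mitochondrial translation, read 602.4 and 300.4 in the SHR nicotine and saline pools against 642.6 and 604.1 in the BN nicotine and saline pools, so its strain estimate of -0.55 (limma adjusted p = 0.00983) came from the SHR saline pool. Mterf3, a repressor of mitochondrial transcription that also acts in ribosome assembly, had an estimate of 0.33 (limma adjusted p = 0.0339). With limma, 0 of 4 translation factors passed (0 at an unadjusted p under 0.05), 0 of 6 regulators of mitochondrial transcription (1 unadjusted) and 0 of 2 tRNA synthetases (0 unadjusted). Over all tested probe sets 17.3% passed and 29.7% had an unadjusted p under 0.05, so counts of 0 to 2 in lists this short say little. Tufm, the elongation factor, was at -0.05, and Tfam, which packages mitochondrial DNA, at 0.05.

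The strain ratios were also set side by side for each treatment, where each ratio comes from 2 arrays and has no test. Under nicotine 2 of 77 measured members were at least 1.5-fold higher in SHR and 3 were at least 1.5-fold lower, where 4.2% and 4.24% of all measured probe sets were (8.44% in either direction). Higher were Mrpl52 (1388654_at) and Mrpl1, and lower were Mrpl4, Mrps31 and Mrps5. Mrps31 and Mrps5 counted as measured only through the BN nicotine pool (110.0 and 113.1, against 56.6 and 72.4 in the SHR nicotine pool). Entry through the higher pool favours members that differ. Under saline 2 of 78 were higher, Mrpl52 (1388654_at) and Mrpl14, and 2 were lower, Mrpl4 and Mrpl1, against 4.17% and 3.95% of all (8.12% in either direction). Mrpl1 thus stood on opposite sides under the 2 treatments. Mrpl14 was measured under saline only through the SHR pool, as the BN saline pool read 88.2. Across 77 members the 2 sets of ratios, which share no array, had r = 0.38, against 0.72 over all 6854 probe sets measured under both.

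**Figure D4:**
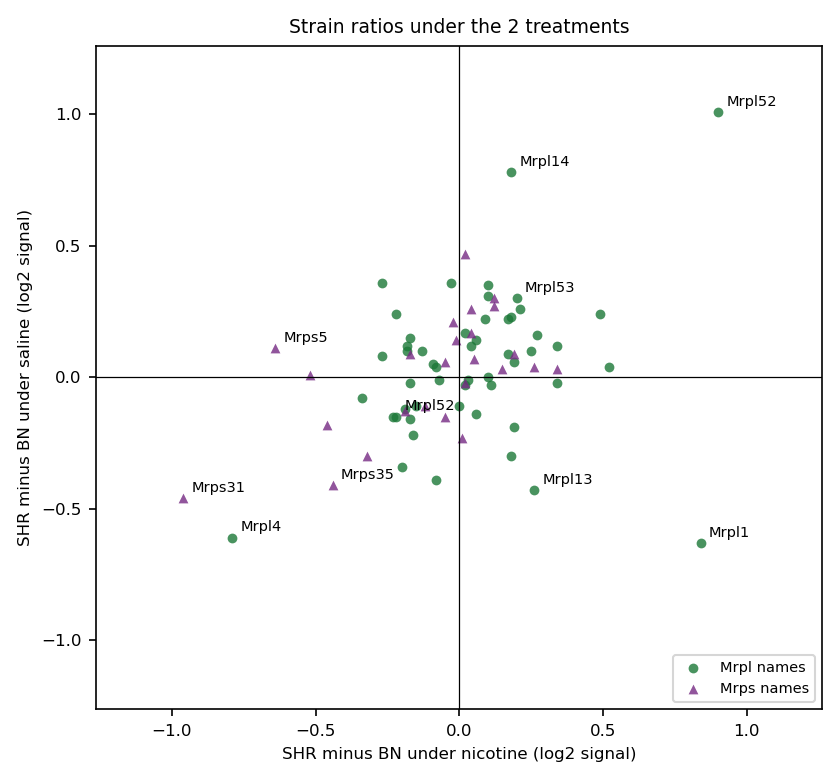
Log2 ratio SHR minus BN under nicotine (x axis) and under saline (y axis), 1 point per member probe set measured in both, with circles for Mrpl and triangles for Mrps names. Mrpl4, Mrps35, Mrps31 and each probe set of Mrpl52 keep their side under both treatments, and Mrpl1 lies at 0.84 and -0.63.

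For nicotine against saline averaged over strains, no member passed. With limma, 0 of 76 members had an adjusted p under 0.05, where 0.0449% of all tested probe sets (3 of 6678) did, and 4 members (5.26%) had an unadjusted p under 0.05, where 5.08% of all did. The smallest adjusted p among members was 0.427. The median nicotine difference was -0.020 on the log2 scale, against 0.000 over all tested probe sets, and 72 of 76 members lay within 1.2-fold. All 4 members with an unadjusted p under 0.05 were large subunit proteins with lower signal under nicotine. Of the 76 tested members, 52 were Mrpl probe sets and 44 were lower under nicotine. With a share near that of all probe sets, no trait of the family is read from these 4.

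Mrpl41, a large subunit protein without a bacterial counterpart, had the smallest of these p-values. Its signal was 407.9 in SHR nicotine and 428.0 in BN nicotine, against 504.6 in SHR saline and 508.8 in BN saline. Both nicotine pools were below both saline pools, and the strains lay close together. The estimate was -0.28 on the log2 scale (SE 0.08, limma adjusted p = 0.427, unadjusted 0.00369).

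Mrpl38, of the central protuberance, read 115.1 in SHR nicotine and 90.9 in BN nicotine, against 142.4 in SHR saline and 131.2 in BN saline (log2 -0.42, SE 0.15, limma adjusted p = 0.644). Mrpl55, in the same region, read 234.2 in SHR nicotine and 194.5 in BN nicotine, against 274.0 in SHR saline and 245.3 in BN saline (log2 -0.28, SE 0.11, limma adjusted p = 0.77). In both the nicotine pools lay below the saline pools of either strain. The fourth was the probe set 1374411_at of Mrpl52, at -0.26 (SE 0.11, limma adjusted p = 0.825), while 1388654_at of the same gene was at -0.01. The next lowest was Mrpl14 at -0.25, followed by the small subunit member Mrps22 at -0.24.

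On the other side Mrpl13, of the large subunit, was at 0.27 (SE 0.14, limma adjusted p = 0.981), with 0.06 without the SHR saline pool and 0.48 without the BN saline pool. Both fits with a pool left out held nicotine alone, so strain differences enter their values. Mrpl40, with 1388517_at at 0.18 and 1374931_at at 0.09, Mrpl1 at 0.17, Mrpl21 at 0.16 and Mrpl34 at 0.14 followed. Over the 76 tested members both nicotine pools were below both saline pools in 13 cases and above in 3, where 10% and 9.81% of all tested probe sets were (19.8% in either direction). The 13 included 10 of 52 tested Mrpl probe sets and 3 of 24 tested Mrps probe sets. The 3 that lay above were Mrpl21, Mrpl40 (1388517_at) and Mrps11.

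Within SHR, where there is no replicate, 52 of 77 measured members read lower in the nicotine pool and 25 read higher, against 3658 and 3422 of 7081 probe sets. The sizes were small: the members' median was -0.064 on the log2 scale, against -0.007 over all, while the SD was 0.22 for members and 0.21 for all. All these ratios come from the same 2 arrays. The 7 immune cell genes, of which 4 were measured on some array, summed to 3951.3 in the SHR nicotine pool against 3341.7 in the SHR saline pool. In BN they summed to 2791.3 under nicotine against 2539.6 under saline. The 7 distal tubule and collecting duct genes summed to 3243.6 under nicotine against 3793.6 under saline in SHR. Of the 9 measured probe sets of these 7 genes, however, 6 read higher under nicotine in SHR and 3 lower. The part of these lists in the shift was not tested. Among members in BN, 36 of 76 read lower and 40 higher, with a median of 0.009 against 0.004 over all.

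Past 1.5-fold stood 2 of 77 members in SHR, both higher under nicotine, where 1.07% of all measured probe sets were higher and 0.904% lower (1.98% in either direction). They were Mrpl1 and Mrpl13, both of bacterial descent and of the large subunit. Mrpl13 read 276.0 in the SHR nicotine pool against 180.7 in the SHR saline pool, 1.53-fold higher, and 231.0 against 242.8 in BN. Of the 4 pools, that of saline-exposed SHR stood lowest.

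Mrpl1 forms the stalk beside which used tRNAs leave the ribosome. Its only probe set read 270.0 in the SHR nicotine pool against 144.0 in the SHR saline pool, 1.87-fold higher, and 150.8 in the BN nicotine pool against 222.9 in the BN saline pool, 1.48-fold lower. The SHR nicotine and BN saline pools were high and the others low, a pattern that neither strain nor nicotine alone describes. The average over strains, 0.17 with an SE of 0.21, therefore says little about either strain, and with 4 arrays the difference between the strains in response could not be tested.

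In BN, 0 of 76 members were 1.5-fold apart, where 0.735% of all measured probe sets were higher and 0.894% lower (1.63% in either direction), and no test was possible. The largest ratios were -0.56 for Mrpl1 and -0.53 for Mrpl38 on the lower side, followed by Mrpl49 (1373241_at) at -0.38, Mrpl55 at -0.34 and Mrpl50 (1372927_at) at -0.32. On the higher side stood Mrpl3, which reaches toward the site where peptide bonds form, at 0.40, Mrps5 at 0.39, Mrps21 and Mrps28 both at 0.29, and Mrps7 at 0.24. In SHR the lowest were Mrpl14 at -0.55, Mrpl39 at -0.47, Mrpl58 at -0.38, Mrps5 at -0.37 and Mrpl37 (1398921_at) at -0.34. Mrpl39 and Mrps5 were measured in SHR only through the saline pool, as the nicotine pool read 76.6 and 72.4. In BN, Mrps5 was measured only through the nicotine pool, as the saline pool read 86.4. Mrpl58 is the hydrolase that frees stalled mitoribosomes. The highest in SHR after Mrpl1 and Mrpl13 were Mrpl40 (1374931_at) at 0.28, Mrpl51 (1390509_a_at) at 0.22 and Mrpl34 at 0.21. That Mrpl40 probe set was measured only through the SHR nicotine pool, as the SHR saline pool read 83.5. The Mrpl51 probe sets 1376930_at and 1379874_at stood at -0.02 and -0.25 in SHR.

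**Figure D5:**
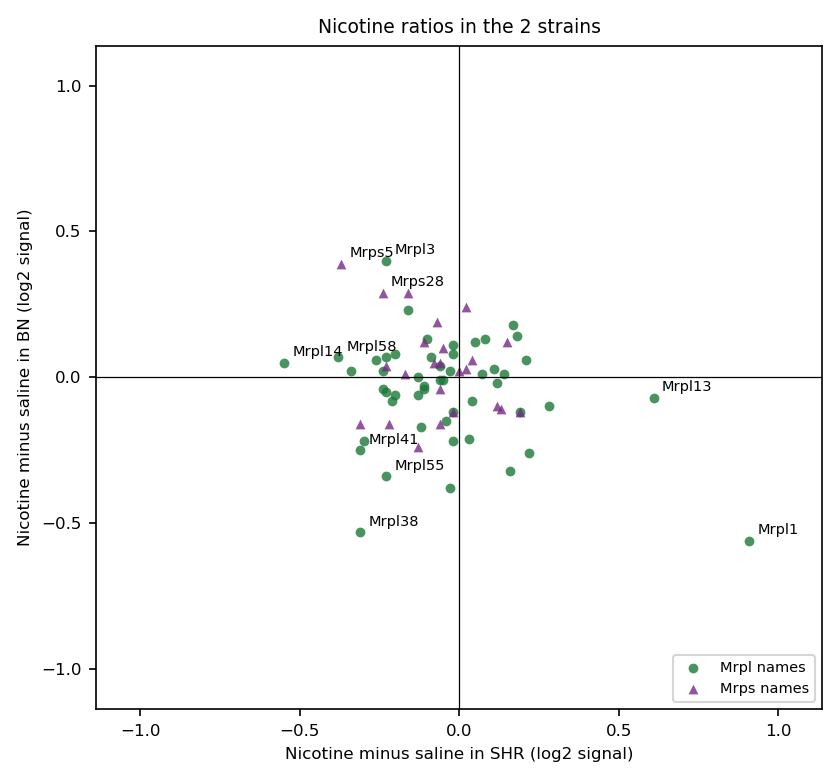
Log2 ratio nicotine minus saline in SHR (x axis) and in BN (y axis), 1 point per member probe set measured in both, with circles for Mrpl and triangles for Mrps names. Mrpl1 lies alone at 0.91 and -0.56, Mrpl13 at 0.61 and -0.07, and Mrpl38, Mrpl55 and Mrpl41 lie below 0 in both strains.

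Across the 75 members measured in both strains the nicotine ratios, which share no array, had r = -0.24, against -0.02 over all 6608 such probe sets, and 49.3% had the same sign, against 48.9% of all. Mrpl1 is the point furthest out, and a correlation of this size across members is no finding.

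For 8 genes with several probe sets, agreement could be read within the gene. The tested probe sets of Mrpl37 had strain estimates of -0.02 and -0.10 on the log2 scale, those of Mrpl57 -0.04 and -0.01, and those of Mrpl50 -0.06 and -0.02. Mrpl40 was at 0.00 and -0.16, and Mrpl51 at -0.02, 0.23 and 0.28. In these genes no probe set passed the test and the estimates lay within 0.3 of each other, whereas those of Mrpl52 lay at 0.95 and -0.18. The nicotine ratios of Mrpl50 in BN were -0.32 for 1372927_at and 0.13 for 1376585_at, so single ratios of this size were not shared by the probe sets of the gene.

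The 10 head-to-head neighbours that were on the array gave 8 tested probe sets, and 1 passed for strain, where 17.3% of all tested probe sets did. It was Pnpla7, a lysophospholipase gene beside Mrpl41, at -0.56 on the log2 scale (limma adjusted p = 0.019), while Mrpl41 itself was at -0.04. Mrpl46, whose promoter is shown above, and its head-to-head neighbour Mrps11 had strain estimates of -0.19 and 0.00, with limma adjusted p = 0.387 and 0.997. Mrps11 is the counterpart of a bacterial protein of the small subunit platform, and Mrpl46 belongs to the central protuberance.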

How the data were processed

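Kidney RNA of 4 pools was read on 1 array each. The authors deposited signal intensity on a linear scale. The submitters' processing notes name MAS5, with no version or settings given in the sources used here. All 4 arrays had a trimmed mean of 150.0, and the deposited intensities were used as they stand, for levels of 1 probe set across arrays only. The 57 control probe sets were left out. Of the other 15866, 12783 had 1 gene symbol, 312 several and 2771 none. Values under 44.5, the 40th percentile, were raised to it before log2.

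Strain and nicotine were tested in 1 additive model over the 4 arrays with limma 3.58.1 in R 4.3.3 (lmFit, eBayes with an intensity trend, Benjamini-Hochberg over 6678 probe sets at 0.05, two-sided). It has 1 residual degree of freedom and 15.50 borrowed from other probe sets, and that 1 also holds any nicotine response that differs between strains. P-values measure the spread between arrays, not animals. Single pairs of arrays have ratios and no test; a probe set is measured in a pair if its higher signal is at least 89.0. Fits that left out 1 pool held only the factor compared, so differences of the other factor enter their estimates. The steps were tested on simulated data. Members and lists were chosen with earlier results of these data known. Named are members past a threshold, the 10 with the largest strain estimate, the 5 furthest in each direction for nicotine on average and in each strain, those with several probe sets, and Mrpl1; others were chosen after their values were seen. Promoters and motifs were read from RefSeq, build GRCr8, with Python 3.11.15.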

Additional observations from a re-analysis of the deposited data

Results flagged for a closer look

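Mrpl1, Mrpl3, Mrpl51, Mrps5 and Mrps28 are listed because their nicotine log2 ratios had opposite signs in the strains and were beyond the SD of all measured probe sets, 0.21 in SHR and 0.20 in BN. Mrpl1 stood at 0.91 in SHR and -0.56 in BN. Mrpl51 (1390509_a_at) stood at 0.22 in SHR and -0.26 in BN. In the other direction Mrpl3 stood at -0.23 in SHR and 0.40 in BN, Mrps5 at -0.37 and 0.39, and Mrps28 at -0.24 and 0.29. How many of all probe sets meet the same rule was not counted, so the list does not set the family apart. Over all 6608 probe sets measured in both strains, 48.9% had the same sign. Mrps5 read 72.4 in the SHR nicotine pool and 86.4 in the BN saline pool, both under the limit for a measured signal. Mrps28 read 89.4 in the SHR nicotine pool, just above that limit. Each ratio rests on 1 pool per group and the difference between strains was not tested.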

How the results depend on the processing

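The floor, the scaling, the filter, the model and the use of 1 probe set per gene were changed one at a time, except that the filter, set at 2 times the floor, moved with it: 80 members were tested with the floor at the 20th percentile and 46 at the 60th. The count of members that differed between strains was 4; it stayed between 3 and 5 in 8 of 10 alternatives, and was 2 with quantile normalization and 0 with no filter on low probe sets, where 0 of 15866 probe sets passed in all. Leaving out 1 pool gave 2 to 4. For all probe sets the strain count was 1153, with 0 to 1273 in these alternatives and 426 to 863 with a pool left out, and the nicotine count was 3, with 0 to 18. For nicotine, 0 members passed in all 10 alternatives and without any pool. The members' median strain difference of 0.011 was 0.053 with the floor at the 60th percentile, and 0.018 to 0.067 without 1 pool; under saline 0.055 was 0.087 with that floor. Members at least 1.5-fold apart numbered 1 in place of 2 for nicotine in SHR with log2(signal + 16) and no floor, and 3 in place of 5 for strain under nicotine with the floor at the 60th percentile, where 49 members were measured. Of the settings in which each was tested, 15 for Mrpl4 and 13 for Mrpl52 (1388654_at), their strain call was lost only with no filter; Mrpl52 (1388654_at) had no value with the floor at the 60th percentile or with 1 probe set per gene. Mrps35 lost it also with quantile normalization and with any pool left out, and Mrpl53 in 9 of 14 alternatives. Fits without 1 pool held only the factor compared, so strain differences enter their nicotine values, and the reverse. Without the SHR nicotine pool Mrpl1 was at -0.25, which sets BN nicotine against the mean of both saline pools. Within BN its nicotine ratio was -0.56. With single pools left out the nicotine difference of Mrpl1 ranged from -0.25 to 0.59, and that of Mrpl14 from -0.65 to 0.14. Other nicotine differences kept their sign but moved by over 1.5 times with a pool left out, such as Mrpl34 (0.01 to 0.26), Mrpl40 (1388517_at, 0.09 to 0.26), Mrpl38 (-0.59 to -0.25) and Mrpl55 (-0.41 to -0.15). So did the strain differences of Mrpl51 (1390509_a_at, 0.15 to 0.41) and Mrpl14 (0.21 to 0.76). Where the cause of a change is not given by fewer probe sets or pools, the cause was not tested. No paired analysis was possible because the labels number no replicates and each group has 1 pool.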

Other observations

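Genes of mitochondrial protein import and of the matrix and inner membrane proteases gave 21 tested probe sets for 18 genes. Of these, 15 had lower estimates in SHR and 6 higher, where 3347 and 3331 of all 6678 did. Over all tested probe sets 1153 passed the strain test, 610 of them lower in SHR. Of the 21, 5 passed with limma (23.8%, where 17.3% of all probe sets did), and all 5 were lower in SHR. They were Yme1l1, an inner membrane protease (1368843_at, log2 -0.52, limma adjusted p = 0.000474), Timm50 of the import channel (-0.35), both subunits of the processing peptidase that removes import signals, Pmpca (-0.32) and Pmpcb (-0.30), and the import chaperone Hspa9 (1388851_at, -0.26). Other probe sets of Yme1l1 and Hspa9 were at -0.13 and -0.01 and did not pass. The median over the list was -0.125 on the log2 scale, against -0.001 over all tested probe sets. The share that passed was near that of all probe sets, so no trait of the list is read from it. Whether the list stands apart from other genes was not tested. With limma, 0 of the 21 passed for nicotine, and 1 had an unadjusted p under 0.05.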
